A study of Mus musculus with 12 samples.

Results

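Transcripts of 85 genes that encode proteins of the cytosolic ribosome were measured in mouse dendritic cells, which present antigen to T cells. The members were taken by name: protein-coding genes whose symbol is Rpl or Rps followed by a number, together with Rplp0, Rplp1, Rplp2 and Rpsa. Pseudogenes, the Rps6k kinases and Rps19bp1, a regulator that only carries a similar symbol, were left out. The 85 genes were 0.274% of the 31054 genes in the count tables, with 33 proteins of the small subunit and 52 of the large subunit. Of these, 84 had enough reads to be tested. Rpl10l, the copy of Rpl10 used in the testis, had 0 reads in all 12 libraries, and the floor of 3 counts corresponds to 0.0718 to 0.137 CPM in a library (CPM, read counts scaled to a common library size).

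Bone marrow of wild-type (WT) C57BL6 mice was the source of the cells, and live CD11c-positive cells, CD11c being an integrin of dendritic cells, were enriched on day 7. Tolerogenic cells treated with vitamin D3 and interleukin 10 (TolDC) and control cells without that treatment (BMDC) were sequenced either after exposure to lipopolysaccharide (LPS), the bacterial ligand of Toll-like receptor 4, or without it. The 4 groups were therefore TolDC with LPS, TolDC, BMDC with LPS and BMDC, with 3 libraries each, and all 4 shared the strain, the genotype, the source tissue and the enrichment. The sources used here give neither the age and number of the mice nor the doses and the length of the stimulation. Nothing in the labels says that the 3 libraries of a group came from separate cultures or animals, so p-values measure the spread between these libraries, which may be technical.

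The libraries held 21844405 to 41764975 reads assigned to genes. All 10 dendritic cell markers examined were detected, with summed levels of 10715 to 12801 CPM in TolDC with LPS, 8683 to 9172 CPM in TolDC, 11299 to 12891 CPM in BMDC with LPS and 7642 to 8024 CPM in BMDC. Single markers of this list differed between the cell types. Without LPS, 4 were higher and 4 lower in TolDC than in BMDC, and with LPS 2 and 7 (edgeR adjusted p below 0.05). Over all genes 32.0% were higher and 30.4% lower without LPS, and 34.3% and 33.7% with LPS. The summed level of 9 granulocyte markers was lowest in the library numbered 1 of each group, at 166 against up to 494 CPM in TolDC with LPS and 603 against up to 2519 CPM in BMDC. Counts of called members are therefore also given without these 4 libraries. CPM is relative to each library's reads. In such bulk samples, fewer cells of a type and less RNA per cell cannot be told apart.

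A cytosolic ribosome pairs a small subunit, which reads the messenger RNA, with a large subunit, which joins the amino acids. One copy of nearly every ribosomal protein goes into each subunit, together with ribosomal RNA made by RNA polymerases I and III, and the parts are assembled in the nucleolus. In vertebrates, messenger RNAs of ribosomal proteins typically begin with a C followed by a run of pyrimidines, the 5′ terminal oligopyrimidine (TOP) tract, through which the kinase mTOR and the protein Larp1 control their translation.

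The transcription start is a feature that the choice of members did not use. In RefSeq's starts for GRCm38.p6, 65 of the 85 members had an entry (Rpl3 and Rpl32 were among those with none), and 14 of them (21.5%) had a C followed by at least 4 bases of C or T exactly at a start on the coding strand. The same held for 813 of 27025 genes with an entry (3.01%) and for 0 of 69 genes of mitochondrial ribosomal proteins. Allowing the tract to begin up to 5 bases either side of the start gave 30 members (46.2%), 21.2% of all genes and 24.6% of the mitochondrial set. The windows below run from 20 bases before the start to 10 bases from it, 5′ to 3′ on the coding strand of GRCm38.p6, with the tract at the start in capitals. They show 5 members with the tract exactly at the start and then 4 members without it there. The changes of these 4 with LPS stood apart from those of most members. Among the 5 with the tract, the LPS responses of Rpl15 and Rps21 also differed between the cell types. Their log2 differences were −0.33 and 0.19 (edgeR adjusted p below 0.05). Median changes of members with and without the tract, given below, were similar. Of the 4 without it at the start, Rpl22l1 and Rps27l have a tract that begins within 5 bases of the start. The tract of Rpl15 runs past the end of its window, and for Rps27l the upstream start of its entries is shown.
Rps6, chr4:86857358-86857387, minus strand: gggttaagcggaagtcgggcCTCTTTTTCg
Rps18, chr17:33955656-33955685, minus strand: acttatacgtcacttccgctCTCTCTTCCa
Rps21, chr2:180257359-180257388, plus strand: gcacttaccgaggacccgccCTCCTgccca
Rps27, chr3:90213639-90213668, minus strand: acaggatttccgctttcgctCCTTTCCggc
Rpl15, chr14:18270977-18271006, minus strand: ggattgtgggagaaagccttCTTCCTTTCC
Rpl24, chr16:55966255-55966284, plus strand: taggaagaaagctgttgctaggaaacagac
Rps27l, chr9:66946066-66946095, plus strand: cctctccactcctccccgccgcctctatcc
Rpl22l1, chr3:28805488-28805517, plus strand: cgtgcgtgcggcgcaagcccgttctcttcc
Rps12, chr10:23787200-23787229, minus strand: ttaaataccgtcatgcggccaccgccggcc

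Other short motifs were searched on both strands from 250 bases before to 50 bases after each start. The core of the site bound by ETS-family factors, CCGGAAG, was in 40.0% of the members, 37.7% of the mitochondrial ribosomal protein genes and 9.93% of all genes with an entry. The E-box CACGTG, the sequence that Myc and its relatives bind, was in 9.23% of the members and 8.09% of all genes, and TATAAA in 10.8% and 15.7%. These matches describe the letters of the windows and are not measured binding.

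All reads of the 85 genes together made up 4.16%, 4.05% and 4.09% of the assigned reads in TolDC with LPS, and 5.03%, 5.29% and 5.28% in TolDC. They made up 3.08%, 3.14% and 3.18% in BMDC with LPS, and 3.62%, 3.82% and 3.91% in BMDC. The 4 groups did not overlap: TolDC held the largest share, TolDC with LPS the next, then BMDC, and BMDC with LPS the smallest. The group means were 4.10% ± 0.057 in TolDC with LPS, 5.20% ± 0.152 in TolDC, 3.13% ± 0.047 in BMDC with LPS and 3.78% ± 0.152 in BMDC (SD, n = 3 libraries each, as in every mean below). Scaled by transcript length (TPM), the members held 7.38%, 9.40%, 5.66% and 6.64% of the total in the same 4 groups. The ratio of small to large subunit reads was 0.795 to 0.800 in TolDC with LPS against 0.811 to 0.824 in TolDC, and 0.794 to 0.801 in BMDC with LPS against 0.817 to 0.834 in BMDC. The ratio was thus lower in every LPS library than in any library without LPS.

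**Figure D1:**
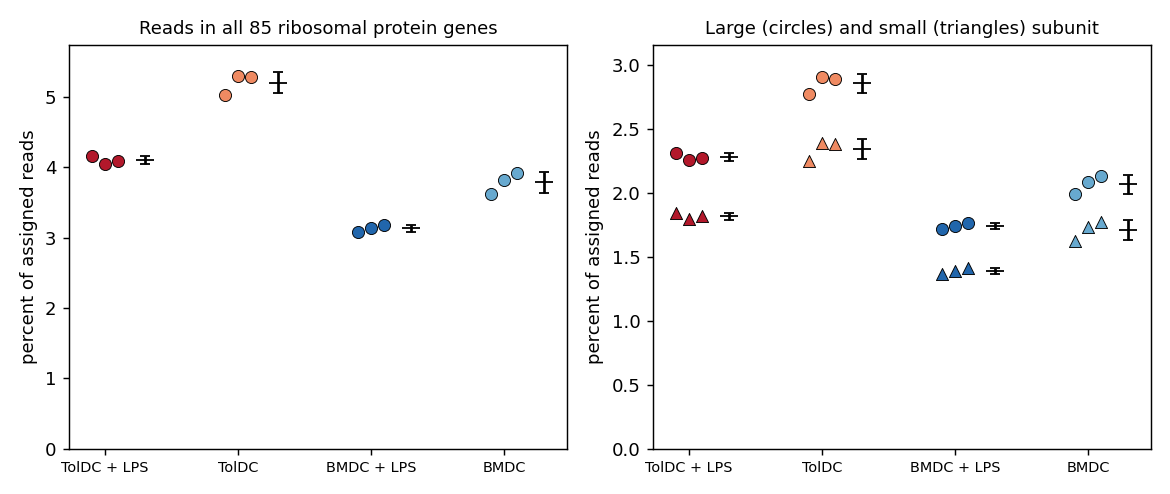
Share of assigned reads (percent, y axis) that fell in ribosomal protein genes in each of the 12 libraries, by group on the x axis. Points are libraries and the black marks are group means ± SD (n = 3); the left panel holds all 85 genes and the right panel the large subunit (circles) and small subunit (triangles). TolDC lie highest at 5.03% to 5.29% and BMDC with LPS lowest at 3.08% to 3.18%, in the same order for both subunits.

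Markers of the cell cycle, 14 genes of dividing cells, also differed between the groups. Their summed level was 191 to 217 CPM in TolDC with LPS, 708 to 717 CPM in TolDC, 250 to 314 CPM in BMDC with LPS and 468 to 549 CPM in BMDC. They were highest in TolDC, as the ribosomal proteins were, but lowest in TolDC with LPS, where the share of ribosomal protein reads was above that of BMDC. Summed levels of markers of other myeloid cells also varied between the groups. The 9 granulocyte markers summed to 166 to 494 CPM in TolDC with LPS, 122.9 to 624 CPM in TolDC, 331 to 1617 CPM in BMDC with LPS and 603 to 2519 CPM in BMDC, and 5 were called lower and 0 higher in TolDC than in BMDC without LPS, 3 and 0 with LPS (edgeR). The 6 macrophage and monocyte markers summed to 990.4 to 1433 CPM in TolDC with LPS, 562 to 589 CPM in TolDC, 621 to 1066 CPM in BMDC with LPS and 1521 to 1582 CPM in BMDC. Of these, 3 were called lower and 2 higher in TolDC than in BMDC without LPS, and 2 and 2 with LPS (edgeR). Over all genes tested, 30.4% were called lower and 32.0% higher without LPS, and 33.7% and 34.3% with LPS. With LPS, 33.3% of the granulocyte markers were called lower, and 33.3% of the macrophage and monocyte markers each way, near those shares. The 7 mast cell and basophil markers summed to 70.1 to 255 CPM in TolDC with LPS and 71.2 to 256 CPM in TolDC. In BMDC with LPS and in BMDC the sums were 28.6 to 141 and 28.5 to 108 CPM. In each group the lowest sum was in the library numbered 1. Of 6 tested, 1 (16.7%) was called higher and 0 lower in TolDC than in BMDC, both without and with LPS (edgeR). No marker of these lists was at 0 in every library. The part of these markers in the results below was not tested.

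TolDC had higher levels of nearly all ribosomal protein transcripts than BMDC when neither had received LPS. Of the 84 members tested, 80 were called higher and 2 lower, where a call is an adjusted p below 0.05 over all 13141 genes tested (edgeR quasi-likelihood test, Benjamini-Hochberg). Over all genes, 62.4% were called, 32.0% higher and 30.4% lower. The median log2 difference of the members was 0.43, a ratio of 1.34, with the middle of the members spread narrowly, from 0.38 at the lower quartile to 0.53 at the upper. Over all genes the median was 0.009, from −0.29 to 0.30. All 33 small subunit members were called, 32 higher and 1 lower. Of 51 large subunit members 48 were higher and 1 lower. Without the 4 libraries numbered 1 the counts were again 80 higher and 2 lower. The 2 lower were Rps27l and Rpl3l, and 1 of them was no longer called without BMDC replicate 2, TolDC replicate 1 or TolDC replicate 3.

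With LPS in both cell types the difference had nearly the same size. TolDC with LPS had 78 members called higher and 2 lower than BMDC with LPS, where 67.9% of all genes were called, 34.3% higher and 33.7% lower (edgeR). The median log2 difference was 0.40, a ratio of 1.32. Among the small subunit members 30 were higher and 1 lower, and among the large subunit members 48 were higher and 1 lower. Of the members called higher, 77 were called with and without LPS, which is 96.3% of those without LPS and 98.7% of those with it. With 80 and 78 of the 84 members called higher, these counts alone force a large overlap. Leaving out the 4 libraries numbered 1 gave 77 higher and 2 lower.

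LPS lowered most of the same transcripts, by a smaller amount. In TolDC, 70 members were called lower with LPS and 1 higher, where 71.3% of all genes were called, 35.9% lower and 35.4% higher (edgeR). Their median log2 change was −0.25, a ratio of 0.842. In BMDC, 63 members were called lower with LPS and 4 higher, where 73.2% of all genes were called, 36.4% lower and 36.7% higher. Upper quartile scaling gave 2 higher in place of 4. The median change there was −0.21, a ratio of 0.866. The medians over all genes were −0.002 in TolDC and −0.0003 in BMDC. Small subunit members fell in 28 of 33 cases in TolDC and 26 of 33 in BMDC, and large subunit members in 42 and 37 of 51. Without the 4 libraries numbered 1, 76 members were lower and 1 higher in TolDC, and 71 lower and 4 higher in BMDC.

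Most members fell in both cell types. LPS lowered 58 members in both, which is 82.9% of the 70 in TolDC and 92.1% of the 63 in BMDC. With 70 and 63 of the 84 members called lower, much of this overlap follows from the counts alone. Across the 84 members the changes in TolDC and in BMDC had a Pearson correlation of 0.65 and a Spearman correlation of 0.65, and across all 13141 genes tested 0.80 and 0.76. The 2 comparisons share no library, but genes of a library share its scaling, and the correlations are descriptions. No member reached a 2-fold change with LPS in either cell type. By group means, 78 of the 84 members were highest in TolDC and 75 were lowest in BMDC with LPS. This order was not counted over all genes. Called lower with LPS in both cell types and higher in TolDC in both LPS states were 56 members (66.7%). The same held for 870 of all 13141 genes tested (6.62%).

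**Figure D2:**
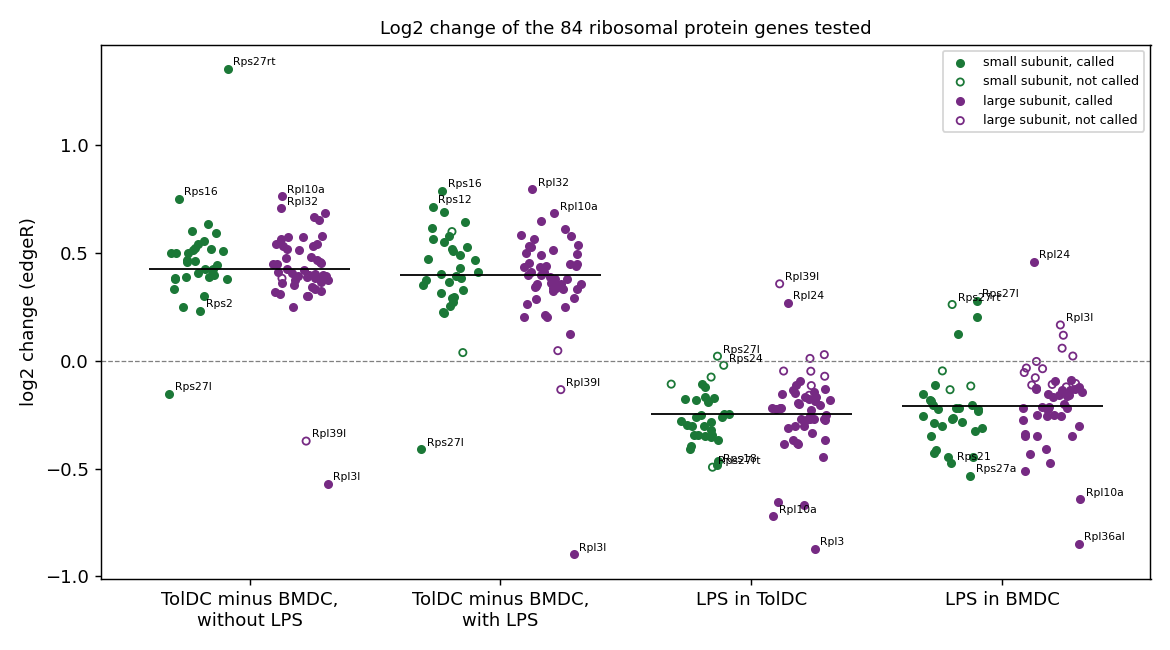
Log2 change (y axis) of each of the 84 members tested in 4 comparisons (x axis); filled points were called by edgeR and open points were not, green is the small and purple the large subunit, and the black line is the median of all 84. The medians are 0.43 and 0.40 for TolDC against BMDC without and with LPS, and −0.25 and −0.21 for LPS in TolDC and in BMDC; Rps27l and Rpl3l lie below 0 in both TolDC comparisons and Rpl24 above 0 in all 4.

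Among proteins of the small subunit, Rps16, whose tail reaches the decoding centre (ENSMUSG00000037563, chr7:28350652-28353155, plus strand, in GRCm38 as all positions below), had the largest difference between the cell types among small subunit members of at least 5 CPM, without and with LPS. It was at 329, 295 and 316 CPM in TolDC with LPS and at 179.6, 181 and 184 CPM in BMDC with LPS. Without LPS it was at 390.5, 419 and 441 CPM in TolDC and at 221, 245 and 276 CPM in BMDC. Every TolDC library was above every BMDC library of the same LPS state, and each cell type was lower with LPS. The log2 difference between TolDC and BMDC was 0.75 ± 0.068 without LPS (± SE of the fit, as in all such values below; edgeR adjusted p = 2.03e-07) and 0.79 ± 0.069 with LPS (edgeR adjusted p = 1.04e-07). With LPS it fell by 0.41 in TolDC and by 0.45 in BMDC (edgeR adjusted p = 7.07e-05 and 3.37e-05).

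Rps12, a protein of the head of the small subunit (ENSMUSG00000061983, chr10:23785183-23787275, minus strand), kept more of its level with LPS in TolDC. It was at 850.3, 837 and 855 CPM in TolDC with LPS and 886, 1007 and 978 CPM in TolDC. In BMDC with LPS it was at 506, 518 and 526 CPM, against 678, 701 and 728 CPM in BMDC. The libraries with LPS lay below those without in both cell types, and by a wider gap in BMDC. The log2 changes with LPS were −0.18 ± 0.044 in TolDC and −0.44 ± 0.044 in BMDC, and their difference was 0.27 ± 0.063 (edgeR adjusted p = 0.00187). Against BMDC, it was higher in TolDC by 0.45 ± 0.044 without LPS and by 0.71 ± 0.045 with LPS (log2, edgeR adjusted p = 6.35e-08 and 6.75e-11).

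Rps27a and Rps21 had the same form of response. Rps27a, which is made fused to ubiquitin, averaged 525 ± 6.89 CPM in TolDC with LPS and 647 ± 45.6 CPM in TolDC, and 325 ± 14.9 CPM in BMDC with LPS and 470.4 ± 32.1 CPM in BMDC. It fell by 0.30 in TolDC and by 0.53 in BMDC, a difference of 0.23 ± 0.076 (log2, edgeR adjusted p = 0.0197). That call was lost when BMDC replicate 2 or TolDC replicate 1 was left out (edgeR adjusted p = 0.0602 and 0.0552) and with scaling by library totals (edgeR adjusted p = 0.0632). Rps21, whose start carries the tract printed above, averaged 264 ± 5.75 CPM in TolDC with LPS and 320.4 ± 17.6 CPM in TolDC, and 172 ± 3.94 CPM in BMDC with LPS and 239 ± 3.54 CPM in BMDC. It fell by 0.28 in TolDC and by 0.48 in BMDC, a difference of 0.19 ± 0.058 (log2, edgeR adjusted p = 0.011).

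Rps20, in the head of the small subunit, changed in opposite directions with LPS. It averaged 559 ± 25.7 CPM in TolDC with LPS and 602 ± 19.0 CPM in TolDC, and 456 ± 12.3 CPM in BMDC with LPS and 418 ± 21.7 CPM in BMDC. The log2 change was −0.11 ± 0.045 in TolDC and 0.12 ± 0.045 in BMDC, with a difference of −0.23 ± 0.063 (edgeR adjusted p = 0.00612). The 2 separate changes were close to the threshold (edgeR adjusted p = 0.0394 and 0.0188) and each was lost without some single libraries. In TolDC these were TolDC replicates 2 and 3 and TolDC with LPS replicates 2 and 3 (edgeR adjusted p = 0.0870, 0.152, 0.1997 and 0.0818). In BMDC these were BMDC replicates 1 and 2 and BMDC with LPS replicate 3 (edgeR adjusted p = 0.0931, 0.0645 and 0.0834). Counting without regard to strand ended the call in TolDC (edgeR adjusted p = 0.0674), and scaling by upper quartiles or library totals that in BMDC (edgeR adjusted p = 0.41 and 0.288).

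Other small subunit members followed the majority. Rpsa, needed for small subunit assembly and also known as a laminin receptor, averaged 1217 ± 34.3 CPM in TolDC with LPS and 1678 ± 23.8 CPM in TolDC, and 1007 ± 13.6 CPM in BMDC with LPS and 1283 ± 39.5 CPM in BMDC. Rps6, the target of the S6 kinases, averaged 442 ± 23.0 CPM in TolDC with LPS and 564 ± 13.5 CPM in TolDC, and 334 ± 6.26 CPM in BMDC with LPS and 399 ± 23.7 CPM in BMDC. Both fell with LPS in each cell type, Rpsa by 0.46 in TolDC and 0.35 in BMDC and Rps6 by 0.35 in TolDC and 0.26 in BMDC on the log2 scale. Rps3, which lines the entry of the messenger RNA channel, was higher in TolDC by 0.51 ± 0.037 without LPS and 0.55 ± 0.037 with LPS. Rps19, which is mutated in many people with Diamond-Blackfan anaemia, was higher in TolDC by 0.52 ± 0.056 and 0.49 ± 0.056. Rps18, with the TOP tract printed above, had the largest fall in TolDC among small subunit members of at least 5 CPM, −0.48 ± 0.040, with −0.41 ± 0.040 in BMDC. All of these changes passed the edgeR test, with adjusted p from 1.72e-10 to 6.04e-05.

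Rps2, Rps3, Rps3a1, Rps9, Rps14, Rps26 and Rps28, proteins along the path of the messenger RNA, were all called higher in TolDC than in BMDC, both without and with LPS (edgeR). All of these fell with LPS in TolDC. In BMDC they fell as well, except that Rps26 was not called, at −0.13.

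In the large subunit, Rpl3, which lies beside the peptidyl transferase centre (ENSMUSG00000060036, chr15:80077791-80091868, minus strand), had the largest fall with LPS of any member in TolDC. It was at 413, 399 and 394 CPM in TolDC with LPS and 731, 752 and 724 CPM in TolDC. Its levels were 346, 344 and 350.0 CPM in BMDC with LPS and 459.9, 513 and 511 CPM in BMDC. The TolDC libraries with LPS were below every BMDC library without LPS. LPS changed it by −0.87 ± 0.042 in TolDC on the log2 scale (edgeR adjusted p = 9.01e-13) and −0.51 ± 0.042 in BMDC (edgeR adjusted p = 2.29e-09), a difference of −0.36 ± 0.059 (edgeR adjusted p = 7.15e-05). The difference between TolDC and BMDC was 0.57 ± 0.042 without LPS and 0.21 ± 0.042 with it.

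Rpl10a, the protein of the L1 stalk through which spent transfer RNA leaves (ENSMUSG00000037805, chr17:28328471-28331033, plus strand), had the largest fall in BMDC among members of at least 5 CPM. It was at 181, 155 and 168 CPM in TolDC with LPS and 262, 281 and 289 CPM in TolDC. The BMDC libraries held 107, 105 and 102 CPM with LPS and 145, 161 and 184 CPM without. TolDC with LPS and BMDC without LPS overlapped, and TolDC stood above all others. LPS changed it by −0.72 ± 0.076 in TolDC on the log2 scale and −0.64 ± 0.078 in BMDC (edgeR adjusted p = 1.66e-06 and 6.08e-06). The 2 falls were not called different, at −0.079 ± 0.11 (edgeR adjusted p = 0.596). Without LPS its difference between TolDC and BMDC, 0.76 ± 0.076, was the largest of the members of at least 5 CPM (edgeR adjusted p = 1.53e-06).

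Rpl32, a protein on the outer face of the large subunit (ENSMUSG00000057841, chr6:115805505-115808747, minus strand), had the largest difference between the cell types with LPS among members of at least 5 CPM. It was at 611, 608 and 607 CPM in TolDC with LPS and 339, 353 and 359 CPM in BMDC with LPS. Without LPS it was at 754, 823 and 805 CPM in TolDC and 454, 506 and 498 CPM in BMDC. Even the TolDC libraries with LPS were above all BMDC libraries. The log2 difference between TolDC and BMDC was 0.80 ± 0.045 with LPS and 0.71 ± 0.045 without (edgeR adjusted p = 1.47e-11 and 9.55e-11).

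Rpl24, which forms a bridge between the subunits (ENSMUSG00000098274, chr16:55966275-55971435, plus strand), was the only member called higher with LPS in both cell types. It was at 267, 261 and 262 CPM in TolDC with LPS and 217, 218 and 219.8 CPM in TolDC. The BMDC libraries held 236, 218 and 231 CPM with LPS and 163, 165 and 172 CPM without. Within each cell type the libraries with LPS were above all those without. The log2 change was 0.27 ± 0.038 in TolDC (edgeR adjusted p = 3.66e-06) and 0.46 ± 0.038 in BMDC (edgeR adjusted p = 2.79e-09), so that the rise was smaller in TolDC (difference −0.19 ± 0.054, edgeR adjusted p = 0.00788).

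Rpl15, in the core of the large subunit (ENSMUSG00000012405, chr14:18267823-18271391, minus strand), fell with LPS in TolDC. It was at 199.7, 187 and 192 CPM in TolDC with LPS and 246, 249 and 252 CPM in TolDC. Its levels were 183, 172 and 177 CPM in BMDC with LPS and 173, 184 and 187 CPM in BMDC. The TolDC groups were apart, while the BMDC groups overlapped. On the log2 scale it changed by −0.37 ± 0.040 in TolDC (edgeR adjusted p = 1.39e-07) and −0.033 ± 0.040 in BMDC (edgeR adjusted p = 0.474), a difference of −0.33 ± 0.057 (edgeR adjusted p = 0.000105). In BMDC the fall passed the test without the 4 libraries numbered 1, at −0.089 (edgeR adjusted p = 0.00953).

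**Figure D3:**
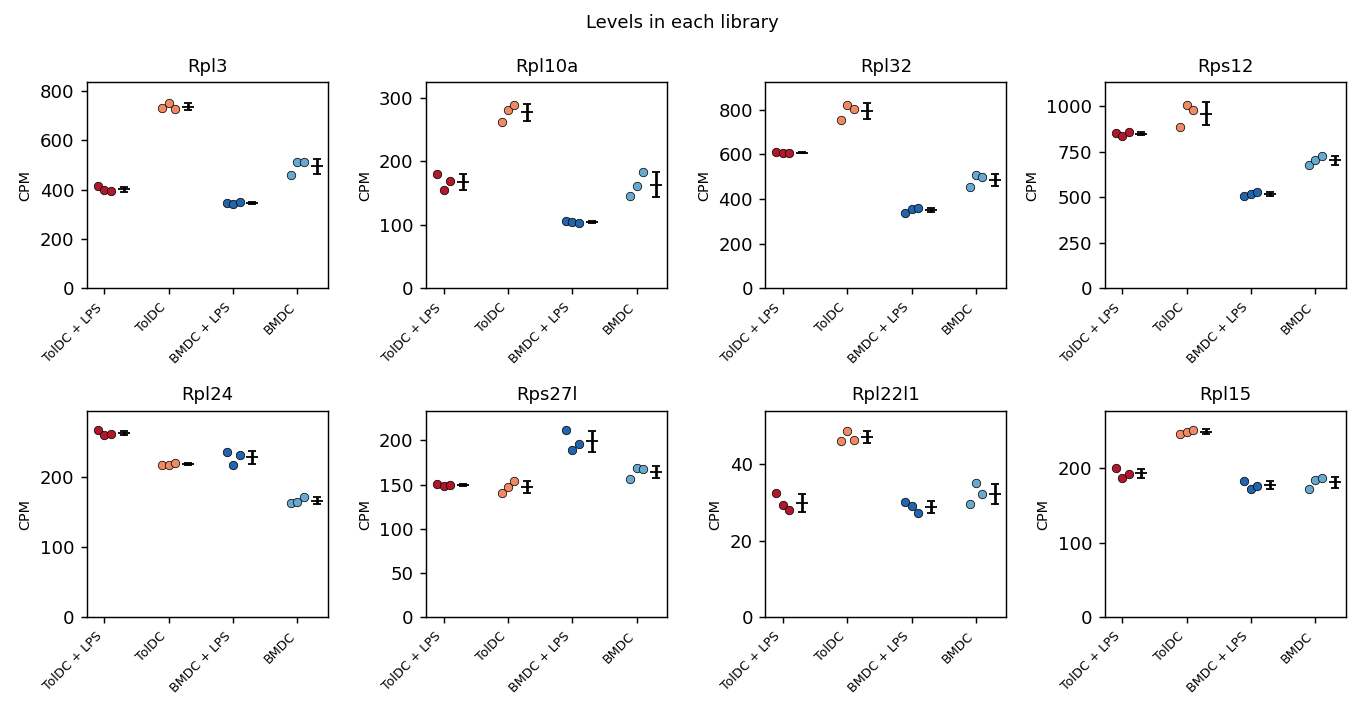
CPM (y axis, from 0) of 8 members in each of the 12 libraries, by group (x axis); points are libraries and black marks are group means ± SD (n = 3). Rpl3 and Rpl10a are lower with LPS in both cell types, Rpl24 is higher with LPS in both, Rps27l is highest in BMDC with LPS, and Rpl15 is lower with LPS in TolDC while its BMDC groups overlap.

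The P stalk recruits the elongation factors that drive each step of translation. Its base Rplp0 averaged 1599 ± 54.5 CPM in TolDC with LPS and 1653 ± 51.2 CPM in TolDC, and 1118 ± 3.38 CPM in BMDC with LPS and 1229 ± 58.8 CPM in BMDC. Its arms Rplp1 and Rplp2 and the neighbouring Rpl12 were called higher in TolDC than in BMDC as well, so that all 4 proteins were higher both without and with LPS (edgeR), by 0.33 to 0.57 and by 0.44 to 0.58 on the log2 scale. With LPS, all 4 fell in BMDC. In TolDC Rpl12, Rplp1 and Rplp2 fell, by 0.44, 0.28 and 0.14, and Rplp0 changed by −0.048 ± 0.041 (edgeR adjusted p = 0.307). Without the 4 libraries numbered 1 the change of Rplp0 in TolDC was −0.092 (edgeR adjusted p = 0.00118).

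Rpl5 and Rpl11 join the ribosome with 5S ribosomal RNA and, when free, bind Mdm2, the protein that holds p53 down. Rpl5 averaged 504 ± 21.3 CPM in TolDC with LPS and 656 ± 12.6 CPM in TolDC, and 403 ± 11.1 CPM in BMDC with LPS and 481 ± 30.1 CPM in BMDC. Rpl11 averaged 475 ± 5.85 CPM in TolDC with LPS and 586 ± 10.1 CPM in TolDC, and 399 ± 4.29 CPM in BMDC with LPS and 475 ± 3.36 CPM in BMDC. Both fell with LPS, by 0.38 and 0.30 in TolDC and by 0.26 and 0.25 in BMDC (edgeR adjusted p from 1.41e-07 to 5.55e-05).

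At the tunnel through which the new protein leaves, all 9 members (Rpl4, Rpl17, Rpl19, Rpl22, Rpl23a, Rpl26, Rpl31, Rpl35 and Rpl39) were higher in TolDC without and with LPS (edgeR). With LPS 7 of them fell in TolDC and 7 in BMDC. Rpl19 was not called in either, at 0.029 ± 0.038 in TolDC and 0.059 ± 0.038 in BMDC. Rpl39 was not called in TolDC and Rpl17 not in BMDC. Without the 4 libraries numbered 1, Rpl39 was called lower with LPS in TolDC, at −0.11 (edgeR adjusted p = 0.0028), and likewise with scaling by library totals, at −0.17 (edgeR adjusted p = 0.00358).

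Several members exist as a main gene and a close copy. Rps27l, a copy of Rps27 that p53 can induce in human cells (ENSMUSG00000036781, chr9:66946086-66949516, plus strand), was lower in TolDC. It was at 151, 149 and 149.5 CPM in TolDC with LPS and 212, 189.5 and 196 CPM in BMDC with LPS. Without LPS it was at 141, 148 and 154 CPM in TolDC and 156, 169 and 168 CPM in BMDC. With LPS every TolDC library was below every BMDC library, and without LPS TolDC were also all below BMDC. The log2 difference between TolDC and BMDC was −0.41 ± 0.046 with LPS (edgeR adjusted p = 2.92e-07) and −0.15 ± 0.047 without (edgeR adjusted p = 0.00805); without TolDC replicate 1 the difference without LPS was −0.12 (edgeR adjusted p = 0.0528). LPS raised it by 0.28 ± 0.047 in BMDC, against 0.022 ± 0.047 in TolDC, which was not called.

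Rps27 itself had the opposite difference between the cell types. It averaged 481 ± 21.7 CPM in TolDC with LPS and 334 ± 2.94 CPM in BMDC with LPS, and 518 ± 37.4 CPM in TolDC and 362 ± 46.9 CPM in BMDC. It was higher in TolDC by 0.53 ± 0.081 with LPS and 0.52 ± 0.081 without (edgeR adjusted p = 9.75e-05 and 0.000133). Its changes with LPS, −0.11 ± 0.081 in TolDC and −0.12 ± 0.081 in BMDC, were not called over all libraries. When the 4 libraries numbered 1 were left out, both were called, at −0.198 in TolDC and −0.21 in BMDC (edgeR adjusted p = 5.77e-09 and 2.65e-09), and without BMDC replicate 1 alone they were also called (−0.11 in TolDC and −0.22 in BMDC, edgeR adjusted p = 0.0470 and 0.00094). Rps27rt, a retrotransposed copy, averaged 1.23 ± 0.496 CPM in TolDC with LPS, 1.72 ± 0.128 CPM in TolDC, 0.806 ± 0.239 CPM in BMDC with LPS and 0.673 ± 0.058 CPM in BMDC. It was called higher in TolDC without LPS, by 1.36 ± 0.28 (edgeR adjusted p = 0.000329), the only called difference of at least 2-fold among the members.

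Rpl22l1, the paralog of Rpl22 (ENSMUSG00000039221, chr3:28805436-28807424, plus strand), fell with LPS in TolDC. It was at 32.5, 29.2 and 27.9 CPM in TolDC with LPS and 45.9, 48.7 and 46.3 CPM in TolDC. The BMDC libraries held 30.2, 28.9 and 27.3 CPM with LPS and 29.6, 34.9 and 32.2 CPM without. TolDC without LPS stood above the other 9 libraries, which overlapped. The log2 change was −0.65 ± 0.064 in TolDC (edgeR adjusted p = 3.09e-08) and −0.16 ± 0.067 in BMDC (edgeR adjusted p = 0.0381), a difference of −0.49 ± 0.092 (edgeR adjusted p = 0.00027). The change in BMDC was no longer called without BMDC replicate 2 or 3, or without BMDC with LPS replicate 2 or 3 (edgeR adjusted p = 0.219, 0.0624, 0.0710 and 0.152), nor by DESeq2 (adjusted p = 0.0626) or when counted without regard to strand (edgeR adjusted p = 0.106). TolDC with LPS and BMDC with LPS were not called different, at 0.048 ± 0.066 (edgeR adjusted p = 0.537). Rpl22 fell by 0.22 in TolDC and by 0.26 in BMDC.

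Of the other pairs, Rpl7 averaged 727 ± 12.2 CPM in TolDC with LPS and 817 ± 23.2 CPM in TolDC, and its relative Rpl7l1 86.1 ± 0.229 and 85.4 ± 2.18 CPM. In BMDC with LPS and in BMDC, Rpl7 averaged 631 ± 13.0 and 655 ± 11.0 CPM and Rpl7l1 59.7 ± 3.96 and 66.5 ± 4.95 CPM. Rpl36a, Rpl39, Rpl10 and Rps4x were all called higher in TolDC in both LPS states, by 0.69, 0.30, 0.39 and 0.54 without LPS (edgeR). The copies Rpl3l, Rpl36al, Rpl39l and Rps27rt averaged under 5 CPM in every group. Rpl3l, the form of striated muscle, averaged 1.16 ± 0.145 CPM in TolDC with LPS and 2.13 ± 0.292 CPM in BMDC with LPS, and 1.29 ± 0.140 CPM in TolDC and 1.90 ± 0.201 CPM in BMDC. It was called lower in TolDC, with log2 differences of −0.90 ± 0.18 with LPS and −0.57 ± 0.19 without (edgeR adjusted p = 0.000284 and 0.0131); the call without LPS did not hold without BMDC replicate 2 or TolDC replicate 3 (edgeR adjusted p = 0.0573 and 0.0664). Rpl39l, best known from testis, was at 0.664 to 0.932 CPM and was called in no comparison, and Rpl36al was at 0.723 to 1.69 CPM (group means).

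Per length, the most abundant members were Rplp1 with a mean of 6382 TPM over the 12 libraries, Rps15 with 2889 TPM and Rplp0 with 2440 TPM. The least abundant of those reaching 5 CPM were Rpl22l1 with 50.3 TPM, Rpl13a with 60.9 TPM and Rpl7l1 with 61.5 TPM. These levels use the union of exons as the length and depend on that choice. Rpl22l1 has 1989 bases in the union and 552 in its longest coding transcript. With the latter length Rpl13a was at 88.9 TPM, so the order of the lowest members is uncertain. Reads that matched several places, 9.34% to 9.85% of each library, were left out of the deposited counts, and ribosomal protein genes have many near-identical processed copies. Levels compared between members are therefore uncertain, Rpl13a included. Rpl13a, which in human monocytes also joins a complex that silences inflammatory messenger RNAs, averaged 48.2 ± 2.65 CPM in TolDC with LPS and 58.0 ± 1.78 CPM in TolDC, and 31.5 ± 1.63 CPM in BMDC with LPS and 40.1 ± 3.18 CPM in BMDC.

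The 2 LPS responses were compared directly. The difference between the change in TolDC and that in BMDC was called positive for 3 members and negative for 11 of 84, where 44.4% of all genes were called, 20.4% positive and 24.0% negative (edgeR). The median difference of the members was −0.033. The 3 positive ones, Rps12, Rps27a and Rps21, fell less in TolDC. Of the negative ones, Rpl22l1, Rpl3, Rpl4 and Rps23 fell in both cell types and more in TolDC. Rpl15 and Rpl7a were called lower in TolDC and not called in BMDC, and Rps20 fell in TolDC and rose in BMDC. Rpl24 rose less in TolDC, and the rise of Rps27l was called in BMDC alone. Without the 4 libraries numbered 1 the counts were 6 positive and 26 negative. They were 6 positive without BMDC replicate 1, 5 positive without TolDC replicate 2 and 18 negative without TolDC with LPS replicate 1. With upper quartile scaling they were 11 positive and 9 negative, and the median was 0.027. Of the 14 members, 11 were called under all 22 alternatives, while Rps27a was not called under 3 of them and Rps23 not under 10.

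**Figure D4:**
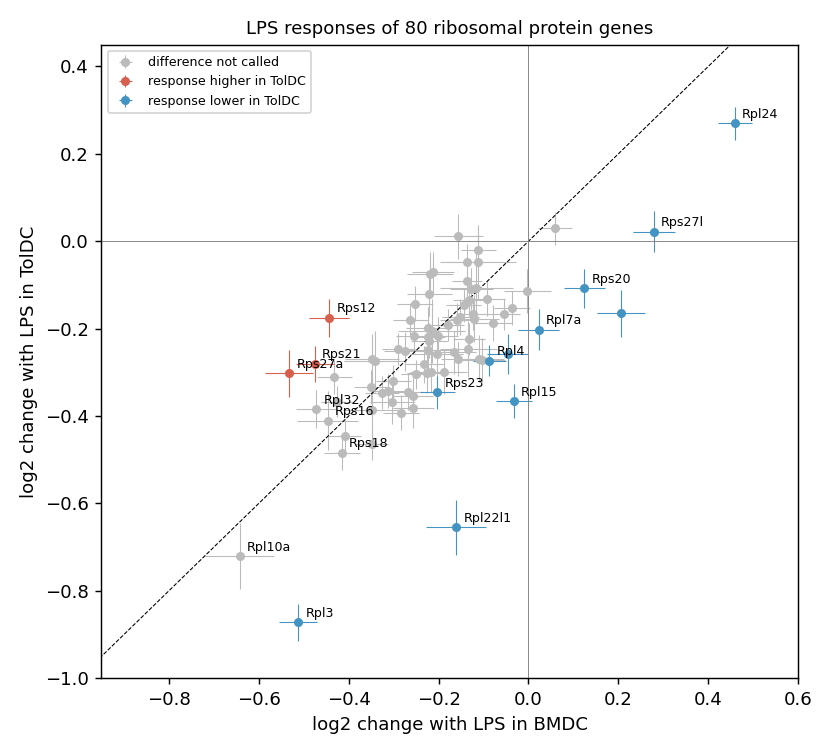
Log2 change with LPS in TolDC (y axis) against that in BMDC (x axis) for the 80 members with at least 5 CPM in some group; bars are SE from the edgeR fit, the dashed line marks equal changes, and colours mark the members whose 2 responses were called different. Most members lie in the lower left near the line; Rps12, Rps21 and Rps27a lie above it, and Rpl22l1, Rpl3, Rpl15 and 8 others below it.

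Members with and without the TOP tract exactly at a RefSeq start had similar median changes. Those without it there can have a tract close by, since 30 of 65 members had one beginning within 5 bases of a start. The start used in these cells was not measured. The 14 members with it had median changes with LPS of −0.28 in TolDC and −0.24 in BMDC, and the 50 tested members without it −0.23 and −0.20. For TolDC against BMDC the medians were 0.44 with the tract and 0.43 without it when neither had LPS, and 0.42 with the tract and 0.40 without it when both had LPS. Rps6 and Rps18, with the tract exactly at the RefSeq start, and Rps12, with none there, all fell with LPS. Of the other members printed without it there, Rpl22l1 fell in both cell types. Rpl24 rose in both, and Rps27l was called higher in BMDC alone. These medians are descriptions without a test. The other 16 genes examined whose messenger RNAs are known for a TOP tract, such as Eef1g and Pabpc1, had 13 called higher and 2 lower in TolDC without LPS, and 8 higher and 3 lower with it. With LPS, 2 rose (12.5%) and 10 fell (62.5%) in TolDC, where 35.4% of all genes rose and 35.9% fell. In BMDC 6 rose (37.5%), near the 36.7% of all genes, and 2 fell (12.5%), against 36.4%. The largest changes of this list were those of Vim, opposite in direction to most ribosomal proteins. Vim changed by 1.63 with LPS in TolDC and by 1.62 in BMDC. Its difference between TolDC and BMDC was −1.50 without and with LPS. Nap1l1 also rose with LPS, by 0.81 in TolDC and by 0.54 in BMDC (log2, edgeR). For TolDC against BMDC, 32.0% of all genes were higher and 30.4% lower without LPS, and 34.3% and 33.7% with it.

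Other genes of the same machinery were examined as lists, whose counts stand against those of all genes given above (35.4% higher and 35.9% lower with LPS in TolDC, 36.7% and 36.4% in BMDC, and for TolDC against BMDC 32.0% and 30.4% without LPS and 34.3% and 33.7% with it). Fau and Rack1, ribosomal proteins under other names, were both called higher in TolDC without and with LPS, and with LPS Rack1 fell by 0.36 in TolDC and by 0.29 in BMDC and Fau by 0.16 in TolDC (edgeR). The mitochondrial ribosome, which translates the genes of mitochondrial DNA, behaved otherwise without LPS: of 77 members tested, 27 were higher and 14 lower in TolDC, with a median of 0.063. With LPS 53 were higher and 3 lower, with a median of 0.25. The responses to LPS differed in 27 of its 77 members, where 44.4% of all genes were called. Of the 77, 25 were positive (32.5%) and 2 negative (2.60%), against 20.4% and 24.0% of all genes. Mrps27 had the largest such difference, 1.12 ± 0.077. In TolDC, LPS raised 18 and lowered 33 of the 77, and in BMDC it raised 11 and lowered 45.

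Ribosome biogenesis factors, which build the subunits in the nucleolus, fell with LPS. Of 74 tested, 55 fell and 7 rose in TolDC, and 59 fell and 10 rose in BMDC, with medians of −0.28 and −0.36. Dkc1, the enzyme that makes pseudouridine in ribosomal RNA, fell by 1.54 in TolDC and by 1.68 in BMDC, and its partner Gar1 by 1.09 and 1.49. In TolDC against BMDC, 41 were higher and 10 lower without LPS, and 48 and 11 with LPS. RNA polymerase I and its factors, which make ribosomal RNA, had 11 of 20 members higher and 1 lower in TolDC without LPS, and 14 and 1 with LPS. With LPS 6 rose (30.0%) and 7 fell (35.0%) in TolDC, close to the shares of all genes, and 4 rose and 11 fell in BMDC. Among 28 genes tested of the growth signals that act on translation, Myc, a transcription factor that drives ribosome production, fell by 1.75 with LPS in TolDC and by 1.73 in BMDC. It was higher in TolDC than in BMDC by 0.75 ± 0.064 without LPS (edgeR adjusted p = 2.15e-08). The list as a whole was split, with 10 up and 14 down with LPS in TolDC and 12 and 12 in BMDC.

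Of 42 initiation factors, 15 rose (35.7%) and 20 fell (47.6%) with LPS in TolDC, and 20 rose (47.6%) and 14 fell (33.3%) in BMDC, not far from the shares of all genes. In TolDC 22 were higher and 5 lower than in BMDC without LPS, and 16 and 12 with LPS. Elongation and release factors had 0 risen and 9 fallen of 12 with LPS in TolDC, and 1 and 6 in BMDC, and 9 higher and 1 lower in TolDC without LPS and 7 and 2 with it. Of the 4 host genes of small nucleolar RNAs tested, 3 rose and 0 fell with LPS in TolDC, and 3 rose and 1 fell in BMDC. Eef2k, the kinase that inhibits the elongation factor Eef2, fell by 0.82 in TolDC and by 1.16 in BMDC. The 22 genes tested of ribosome quality control had 12 risen and 5 fallen with LPS in TolDC and 9 and 6 in BMDC. The 12 importers and chaperones of ribosomal proteins had 3 risen and 5 fallen in TolDC and 2 and 8 in BMDC.

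**Figure D5:**
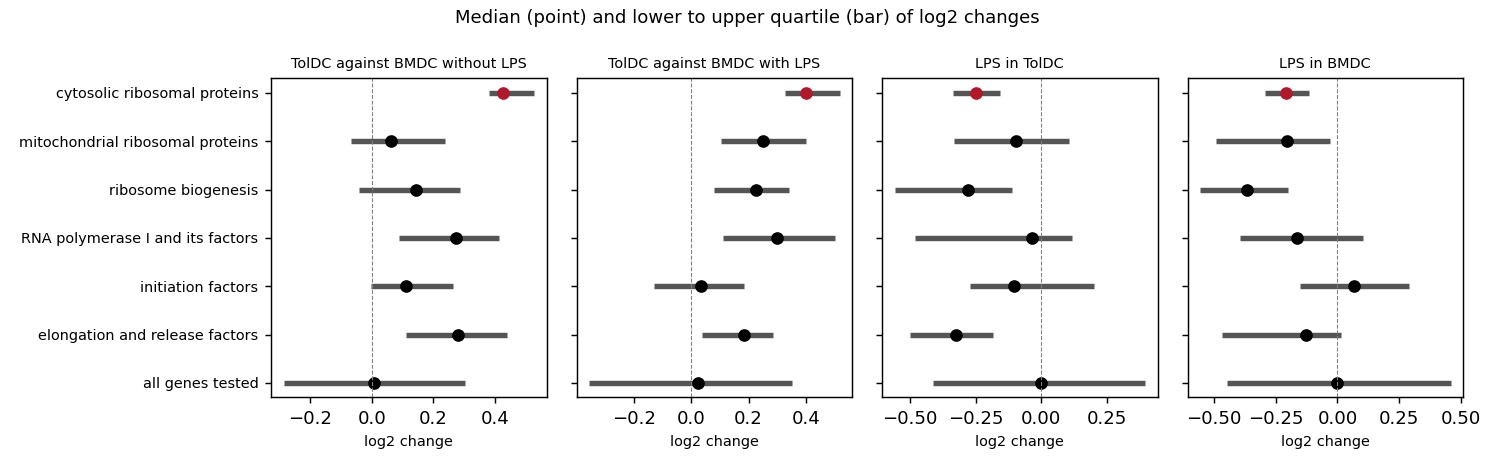
Median (point) and lower to upper quartile (bar) of the edgeR log2 changes (x axes) of 7 gene sets (rows) in 4 comparisons (panels). The cytosolic ribosomal proteins (red) have medians of 0.43, 0.40, −0.25 and −0.21 from left to right, with bars narrower than those of all genes tested, whose medians lie near 0.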

How the data were processed

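RNA-seq libraries of 12 samples were deposited as read counts per gene. Per the submitters' processing notes, the authors used cutadapt, STAR, edgeR and limma with the mouse build mm10 (GRCm38); the versions and the annotation are not stated there. The deposited counts are whole reads, with multi-mapping reads left out. The column of stranded counts, with 79.3% to 80.6% of all reads in genes, was used, with the counts without regard to strand as an alternative. Lines that name no gene (unmapped, multi-mapping, ambiguous or outside genes), the remaining share, stayed out of library sizes. Gene names were matched for 31011 of 31054 identifiers.

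From the counts, filtering (filterByExpr) left 13141 genes, which were scaled by TMM and tested with edgeR 4.0.16 (quasi-likelihood, robust) in R 4.3.3 over all 4 groups, 8 residual degrees of freedom, in 5 comparisons, with Benjamini-Hochberg adjusted p below 0.05. The fits were tested on simulated data. CPM values use TMM-scaled library sizes. TPM used the length of the union of exons. Alternatives were upper quartile scaling, library totals, DESeq2 1.42.0, limma-voom 3.58.1, no filter, counts without regard to strand, a replicate block, RLE scaling, named pseudogene counts added to their member, each library left out, and the 4 libraries numbered 1 left out. The members and lists were chosen with earlier results of these data known. Named members are the 4 largest called rises and falls of each comparison among those of at least 5 CPM, the 3 highest and 3 lowest per length, paralog pairs, the stalk, the 5S particle and a few of known role; Rpl4, Rpl7a, Rps23 and the group members listed fall outside it and were named after their values were seen. Some members are not reported by name here, but stay in all counts and medians. Intervals and the floor of 3 counts cover counting error only.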

Additional observations from a re-analysis of the deposited data

Results flagged for a closer look

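For 9 of the members that the report names, the response to LPS in TolDC differed from that in BMDC by a test of the difference itself (edgeR, adjusted over all genes). Among all 84 members tested, 14 had a called difference, 3 positive (3.57%) and 11 negative (13.1%). Over all genes tested the shares were larger, 20.4% and 24.0%. The log2 difference, the change in TolDC minus that in BMDC, was 0.27 for Rps12, 0.23 for Rps27a and 0.19 for Rps21, whose transcripts fell less in TolDC. It was −0.49 for Rpl22l1, −0.36 for Rpl3, −0.33 for Rpl15, −0.26 for Rps27l, −0.23 for Rps20 and −0.19 for Rpl24. Rps20 fell in TolDC and rose in BMDC, and Rpl24 rose in both. Besides these, Rpl7a, Rpl4 and Rps23, also named above, had called differences of −0.22, −0.19 and −0.14. Rps27a was called under 19 of the 22 alternatives and Rps23 under 12 of them.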

How the results depend on the processing

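Of 4180 values, 190 member results under 22 alternatives, 4083 kept their direction and side of the threshold, 41 were no longer called, 56 became called and 0 reversed. Counts of called members with LPS in TolDC, and of TolDC against BMDC with LPS, stayed within 1.5 times under every alternative. With upper quartile scaling, 2 members were higher with LPS in BMDC, and the responses differed positively for 11 and negatively for 9 members. Library totals gave 2 and 20, no filter 6 positive, and leaving out the 4 libraries numbered 1 gave 6 and 26. Leaving out 1 library gave 3 to 4 higher and 56 to 70 lower members with LPS in BMDC, 1 higher and 64 to 72 lower in TolDC, 80 higher and 1 to 2 lower in TolDC against BMDC without LPS, and 76 to 79 higher and 2 lower with LPS. For the difference of responses it gave 2 to 6 positive and 10 to 18 negative. With the replicate number as a block, the counts were 4 higher and 64 lower with LPS in BMDC, 1 and 71 in TolDC, 80 and 2 in TolDC against BMDC when neither had LPS, 79 and 2 when both had it, and 7 positive and 15 negative for the difference. Libraries of the same number had correlated deviations above 0.1 in 17 of 18 pairs (lowest 0.091), and 10 of 12 libraries correlated best with their own number. Same-numbered libraries thus tended to deviate together, most clearly those numbered 1 (0.330 to 0.466). Deviations were taken from the mean of a group's 3 libraries, so a library 1 that stands apart also makes libraries 2 and 3 deviate alike. Same-number pairs of 2 or 3 had 0.091 to 0.276, and pairs of a library 2 with a library 3 had 0.104 to 0.202. The correlations are a hint from the data and not from the design. Since the labels do not say what a number marks and 1 pair was below 0.1, the numbers were not treated as pairs. Across scalings the median of all genes moved at most to −0.099, with library totals for LPS in TolDC. The causes of these changes were not tested. Depth limits only the members under 5 CPM, Rpl3l, Rpl36al, Rpl39l and Rps27rt, where 3 counts are 0.0718 to 0.137 CPM.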
